A study of Homo sapiens with 6 samples.

Results

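HMGA1, HMGA2, IGF2BP1, IGF2BP2, IGF2BP3 and LIN28B are genes of the fetal growth programme that are often switched on again in tumours. They were followed here in IMR90 cells, a line of primary human fetal lung fibroblasts grown in serum-containing medium. These 6 genes, out of 57659 in the count files, were picked by symbol and matched to Ensembl identifiers; 5 of them had enough counts to enter the fit and 1, LIN28B, had no count. They were chosen from earlier results of these same libraries with the knockdown contrast in view, so their own levels and fold changes are given as a description with no test. All cells expressed a short hairpin RNA: in 3 control libraries it was directed against luciferase, a firefly gene absent from human cells, and in 3 knockdown libraries against macroH2A1, a histone H2A variant with a large globular domain. The labels call the 3 libraries of a group biological replicates, and all 6 come from this 1 line. They name 1 target for each group and no second hairpin, so an effect of the hairpin itself and of macroH2A1 loss cannot be told apart.

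HMGA1 and HMGA2 are small chromatin proteins that bind AT-rich DNA in the minor groove with AT-hooks; they are abundant in embryonic cells and have also been linked to the compacted heterochromatin of senescent fibroblasts. The IGF2BP proteins are RNA-binding proteins named for IGF2 mRNA; they stabilise and localise bound transcripts, and they have been described as readers of the RNA mark N6-methyladenosine. LIN28B blocks the maturation of let-7, a family of microRNAs that in turn represses HMGA2, the IGF2BP genes and LIN28B itself. The genes of this circuit are therefore described below by their let-7 sites first, then as chromatin proteins, RNA-binding proteins and let-7 regulator.

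The let-7 family is shown with the seed, bases 2 to 8, in capitals, because every site below is read from the seed. All 9 mature let-7 family names in the RefSeq table (build GRCh38.p14), miR-98 included, share the seed GAGGUAG, and 3 of them are printed to show how the rest of the sequence differs.
let-7a-5p: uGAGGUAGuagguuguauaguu
let-7d-5p: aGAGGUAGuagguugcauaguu
miR-98-5p: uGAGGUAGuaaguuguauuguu
A match to the whole seed followed by an A, CTACCTCA, is called an 8mer; CTACCTC without that A is a 7mer-m8, and TACCTCA without the first base is a 7mer-A1. Each match was counted once, under the longest form, on the transcript strand of annotated 3′ UTRs only.

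Every member carried at least 1 of these matches in the 3′ UTR of its principal transcript (GENCODE 29, build GRCh38), a choice made after seeing the data. In the longest 3′ UTR, the choice planned first, HMGA2 held none and the other members had the same matches. The values below are those of the principal transcripts. HMGA2 held 7 matches in 3003 bases, of which 1 was an 8mer, 3 were 7mer-m8 and 3 were 7mer-A1. IGF2BP1 held 5 in 6206 bases, with 3 of them 8mers, and LIN28B held 5 in 4549 bases, with 2 of them 8mers. IGF2BP2 had 2 matches in 1792 bases, IGF2BP3 had 1 in 2153 bases and HMGA1 had 1, a 7mer-m8, in 1347 bases. HMGA2 was therefore the densest at 2.33 matches per kilobase, and IGF2BP3 the sparsest at 0.464.

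One match of each member is printed, the 8mer nearest the stop codon where there is one, with the match in capitals, the 20 bases before it and enough bases after it to make 30. The coordinates are those of the match in GRCh38, a different build from the hg19 of the count files.
HMGA2, chr12:65963313-65963320, plus strand: ggggcgccaacgttcgatttCTACCTCAgc
LIN28B, chr6:105078827-105078834, plus strand: cctttacccggttgcaaagtCTACCTCAtg
IGF2BP1, chr17:49051076-49051083, plus strand: aatgctgtgtgcgaagtaaaCTACCTCAag
IGF2BP2, chr3:185644220-185644227, minus strand: agaaaaacacacagaagaagCTACCTCAgg
IGF2BP3, chr7:23311795-23311802, minus strand: aaacgtgcatttttactcaaCTACCTCAgg
HMGA1, chr6:34245844-34245850, plus strand: atttttcctctgttcacaaaCTACCTCtgg
The HMGA2 and LIN28B 8mers lay right behind the coding sequence, at bases 21 and 44 of the 3′ UTR, whereas the first IGF2BP1 8mer began at base 1632. The HMGA1 match lacks the closing A and so counts as a 7mer-m8.

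**Figure D1:**
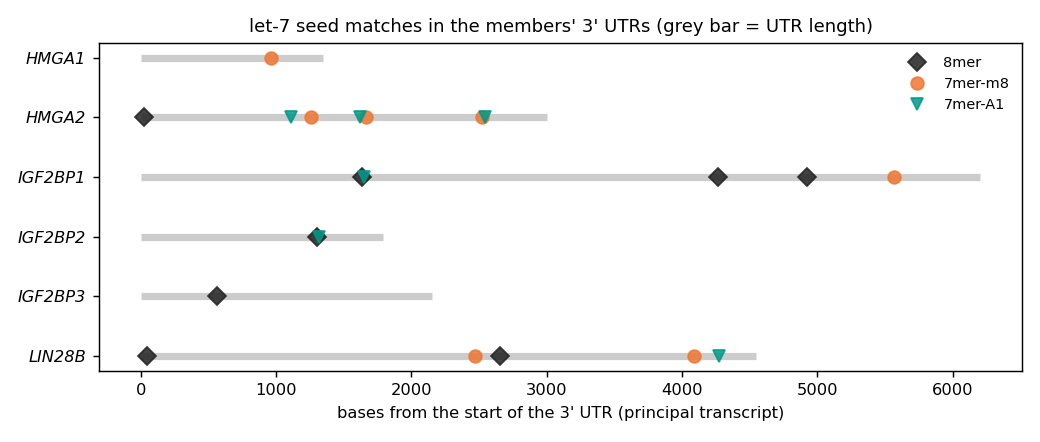
Position of let-7 seed matches in the 3′ UTR of each member's principal transcript, in bases from the start of the UTR; grey bars give the UTR length and marker shapes the kind of match. HMGA2 has 7 matches spread over 3003 bases, and HMGA1 and IGF2BP3 have 1 each.

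Such matches are uncommon, and longer UTRs hold more of them. Over the principal 3′ UTRs of 18942 genes, 14% held any of the forms and 3.26% an 8mer. Among UTRs within 25% of a member's own length, the share with any match was 14.4% for HMGA1, 24.9% for HMGA2, 46.5% for IGF2BP1, 18.2% for IGF2BP2, 19.3% for IGF2BP3 and 37.5% for LIN28B. Only 10 genes, 0.0528%, held 5 or more matches, and HMGA2, IGF2BP1 and LIN28B were among them. HMGA2 is annotated with several last exons: its longest 3′ UTR, 7421 bases on another last exon, held none of these matches. The counts do not say which of these ends the cells used. A match is a run of letters in these windows and shows no binding.

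The hairpin lowered its target without removing it. MACROH2A1 stood at 88.3 ± 3.62 CPM (counts per 1000000 over scaled library sizes; SD, n = 3) in control and 40.9 ± 2.51 in knockdown cells, which left 46.3% of the control level (edgeR adjusted p = 0.000917). Libraries held 3741087 to 6421605 gene counts, so that 3 counts correspond to 0.467 to 0.802 CPM. All 10 fibroblast markers were present, with summed levels of 7500 to 8560 CPM in control and 12000 to 12700 CPM in knockdown libraries; among them the matrix genes COL1A2, COL3A1, DCN and LUM and the receptor PDGFRA were called higher. The other 5 were not called, with log2 fold changes of 0.41 for PDGFRB, 0.39 for COL1A1, 0.08 for THY1, 0 for VIM and −0.14 for FAP. Summed epithelial markers were at most 1.11 CPM, endothelial at most 3.21 CPM, blood at most 1.06 CPM and pluripotent or germ cell markers at most 0.264 CPM, with PECAM1, CD3E, HBA1, NANOG and SOX2 at 0. The part of the 5 called markers' difference in the member values was not tested. In bulk RNA, fewer cells that express a gene and less of its RNA per cell cannot be told apart.

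Among the chromatin proteins, HMGA2 showed the wider gap between the groups. Control libraries held 812, 531 and 498 counts of HMGA2 (ENSG00000149948, chromosome 12) against 230, 224 and 170 in knockdown libraries, or 128, 121 and 132 CPM against 45.5, 48.7 and 45.5 CPM. The lowest control library was far above the highest knockdown library, and libraries of a group lay close together, with a coefficient of variation of 4.12% in control and 3.97% in knockdown cells. The mean was 127 ± 5.23 CPM in control and 46.6 ± 1.85 CPM in knockdown cells (SD, n = 3), 2.73-fold lower. The fitted log2 fold change of −1.45 (SE 0.07) sat at percentile 0.93 of all 13445 genes fitted.

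HMGA1, the other AT-hook protein, was lower by less. HMGA1 (ENSG00000137309, chromosome 6) had 295, 208 and 190 counts in control and 191, 186 and 130 in knockdown libraries, or 46.7, 47.6 and 50.2 CPM against 37.8, 40.4 and 34.8 CPM. The groups did not overlap, but the step between them was small next to that of HMGA2. The mean was 48.1 ± 1.85 CPM in control and 37.7 ± 2.81 CPM in knockdown cells (SD, n = 3), 78.3% of control, with a log2 fold change of −0.35 (SE 0.08).

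Of the 3 RNA-binding paralogs, IGF2BP3 was lower and the others were not. IGF2BP3 (ENSG00000136231, chromosome 7) had 610, 384 and 353 counts in control and 360, 345 and 256 in knockdown libraries, or 96.5, 87.8 and 93.3 CPM against 71.2, 75 and 68.6 CPM. Every control library was above every knockdown library. The means were 92.5 ± 4.4 and 71.6 ± 3.24 CPM (SD, n = 3), which left 77.4% of control at a log2 fold change of −0.37 (SE 0.07), close to the value of HMGA1.

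IGF2BP1 and IGF2BP2 overlapped between the groups. IGF2BP1 (ENSG00000159217, chromosome 17) had 230, 165 and 166 counts, or 36.4, 37.7 and 43.9 CPM, in control and 199, 193 and 162 counts, or 39.4, 42 and 43.4 CPM, in knockdown libraries. Its highest value was a control library, and the log2 fold change was 0.08 (SE 0.09). IGF2BP2 (ENSG00000073792, chromosome 3) had 430, 316 and 229 counts, or 68, 72.2 and 60.5 CPM, in control and 334, 319 and 268 counts, or 66.1, 69.4 and 71.8 CPM, in knockdown libraries. Its knockdown libraries lay within the control range, and the log2 fold change was 0.04 (SE 0.09). Both control groups were more spread out than those of the other members, with coefficients of variation of 10.2% for IGF2BP1 and 8.88% for IGF2BP2.

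LIN28B (ENSG00000187772, chromosome 6), the let-7 blocker, had 0 counts in all 6 libraries. A count of 0 allows up to 3 counts, which is 0.467 to 0.802 CPM in a library and covers counting error only. A difference between the groups below that level was not detectable at this depth, and no fold change is given.

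**Figure D2:**
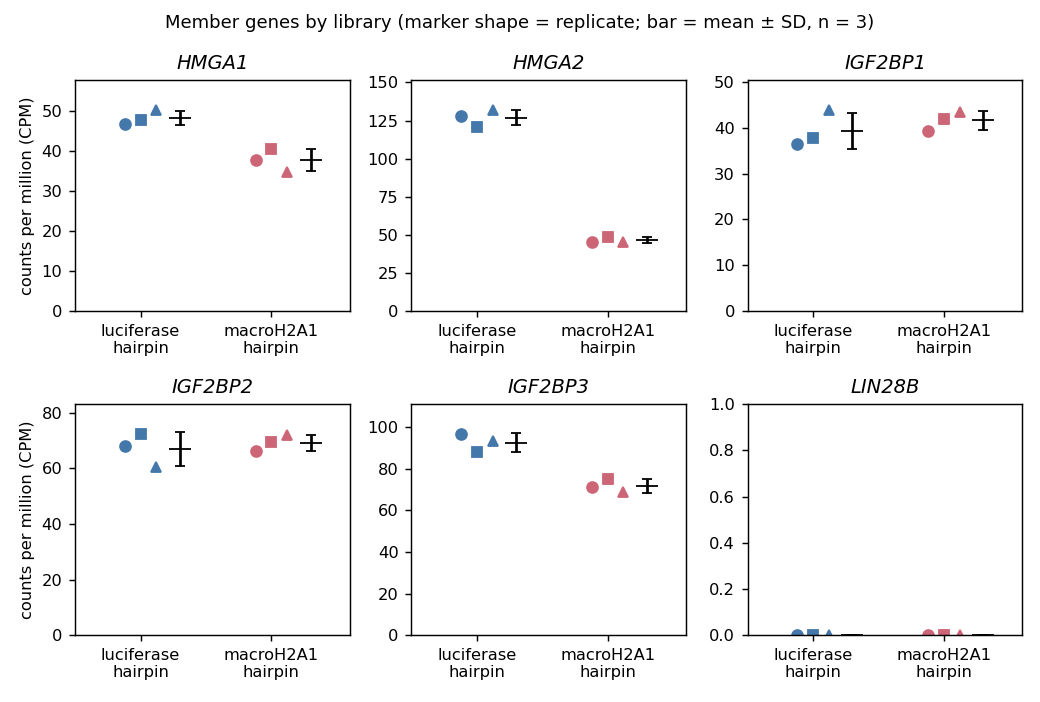
CPM of each member in each library; marker shapes are replicates, horizontal bars and whiskers the mean ± SD of 3 libraries. The groups stand apart for HMGA1, HMGA2 and IGF2BP3, overlap for IGF2BP1 and IGF2BP2, and are at 0 for LIN28B.

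In the whole-table edgeR fit, 3 of the 5 members fitted were called lower at an adjusted p under 0.05, beside 4.31% of all genes, and 0 were called higher, beside 3.9%; calls in either direction were 8.21% of all genes. The CPM ranges of the groups did not overlap for the same 3 members, beside 30.4% of all genes fitted. Since this contrast chose the members, nothing is read from these counts. The same holds for the members' calls in the 13 other settings, which refit the same libraries and lend the choice no support. HMGA2 stayed called in all 13 other settings of the fit, HMGA1 lost its call in 10 and IGF2BP3 in 8, among them each of the 6 fits without 1 library, while the log2 fold change kept its sign at −0.4 to −0.3 for HMGA1 and −0.41 to −0.33 for IGF2BP3. In the authors' deposited table, the ratio of group means, knockdown over control, was 0.369 for HMGA2, 0.788 for HMGA1, 0.779 for IGF2BP3, 1.07 for IGF2BP1 and 1.04 for IGF2BP2.

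Ratios between members inside a library need no scaling between libraries, and they separate the same genes. They come from the same counts as the values above and lend the choice of members no support. The count ratio of HMGA2 to HMGA1 was 2.75, 2.55 and 2.62 in control and 1.2, 1.2 and 1.31 in knockdown libraries, so that HMGA2 counts went from well over to little over those of its paralog. HMGA2 to IGF2BP3 was 1.37 ± 0.0404 in control and 0.651 ± 0.0127 in knockdown libraries (SD, n = 3). These raw ratios mix levels with gene length and are compared only between groups. Within the IGF2BP genes, IGF2BP3 to IGF2BP2 was 1.42, 1.22 and 1.54 in control and 1.08, 1.08 and 0.955 in knockdown libraries, with no overlap. IGF2BP1 to IGF2BP2 overlapped, at 0.594 ± 0.114 and 0.602 ± 0.00517.

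**Figure D3:**
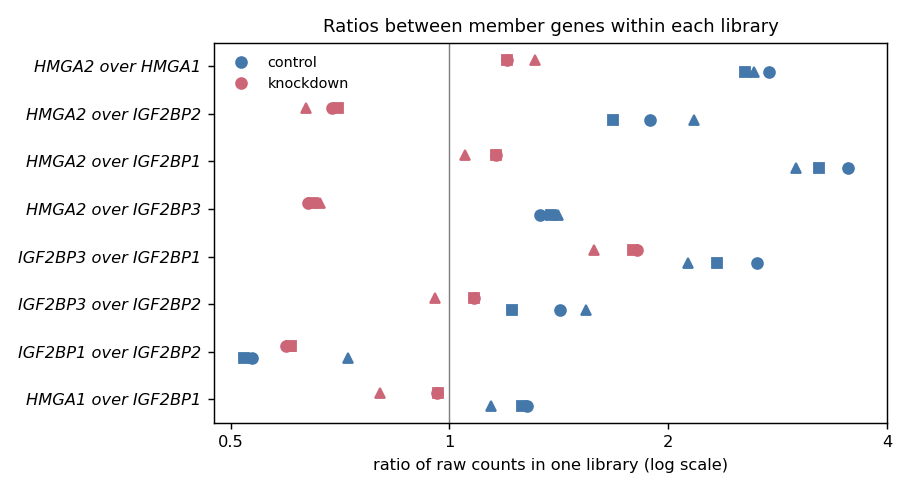
Ratio of raw counts of pairs of members in each library on a log axis; colours are groups and marker shapes replicates. HMGA2 over each of the other 4 fitted members is lower in all knockdown libraries, and IGF2BP1 over IGF2BP2 overlaps between groups.

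The make-up of the IGF2BP trio shifted with these values. IGF2BP3 gave 48%, 44.4% and 47.2% of the trio's counts in control and 40.3%, 40.3% and 37.3% in knockdown libraries. IGF2BP2 gave 33.7% ± 2.96 in control and 37.9% ± 1.02 in knockdown libraries, and IGF2BP1 gave 19.8% ± 2.13 and 22.8% ± 0.71 (SD, n = 3). The trio summed to 199 ± 1.83 CPM in control and 182 ± 5.04 CPM in knockdown cells, so most of its RNA was still there.

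Levels of different genes were compared as CPM per kilobase of the union of annotated exons. In control cells this level was 20.7 ± 0.793 for HMGA1, 14.1 ± 1.25 for IGF2BP2, 10.9 ± 0.517 for IGF2BP3, 8.26 ± 0.339 for HMGA2 and 4.32 ± 0.438 for IGF2BP1 (SD, n = 3), and no neighbours in that order overlapped. In knockdown cells the order of these per-kilobase means was the same except that HMGA2, at 3.02 ± 0.12, came last behind IGF2BP1 at 4.56 ± 0.225, and HMGA1 and IGF2BP2 overlapped at 16.2 ± 1.21 and 14.6 ± 0.607. HMGA2's place depends on the length used, because its annotated exons together span 15403 bases and its principal transcript 4473. Per kilobase of principal transcript, a choice made after seeing the data, HMGA2 led in control cells at 28.4 ± 1.17, followed by HMGA1 at 22.3 ± 0.855 and IGF2BP3 at 21.8 ± 1.04, which overlapped, then IGF2BP2 at 18.1 ± 1.61 and IGF2BP1 at 4.75 ± 0.483. In knockdown cells HMGA2 on that scale was at 10.4 ± 0.413, below IGF2BP2 at 18.7 ± 0.78, HMGA1 at 17.5 ± 1.3 and IGF2BP3 at 16.8 ± 0.763, whose libraries overlapped between neighbours. On the union scale, the control level of HMGA1 sat at percentile 84.7 of the 12920 fitted genes with a length, IGF2BP2 at 79.3, IGF2BP3 at 74.9, HMGA2 at 69.1 and IGF2BP1 at 51. On the principal transcript scale, over 10436 genes, HMGA2 was at percentile 90.7, HMGA1 at 87.5, IGF2BP3 at 87.1, IGF2BP2 at 84 and IGF2BP1 at 45.7.

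**Figure D4:**
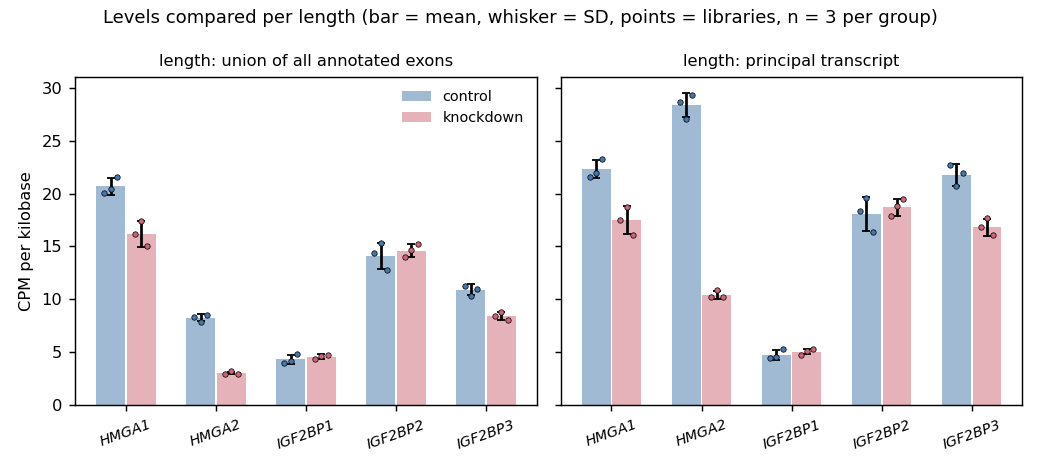
CPM per kilobase of the fitted members under 2 choices of gene length, union of annotated exons (left) and principal transcript (right); bars are means, whiskers SD and points the 3 libraries of each group. HMGA2 in control cells is at 8.26 on the left and 28.4 on the right, and IGF2BP1 is near 5 in both.

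Annotated copies and overlapping genes of the members were checked for counts of their own. The HMGA1 pseudogenes HMGA1P1, HMGA1P2, HMGA1P3, HMGA1P4, HMGA1P6, HMGA1P7 and HMGA1P8 had between 1 and 17 counts summed over the 3 libraries of a group, but reads that align equally well to them and to HMGA1 would not be in the counts. HMGA2-AS1, which shares 384 exon bases with HMGA2 on the other strand, summed to 5 counts in control and 1 in knockdown, and RPSAP52, a transcribed pseudogene beside HMGA2, to 23 and 13. IGF2BP3 shares 1521 exon bases with MALSU1 on the other strand, named here for that overlap, which had 190 counts in control and 169 in knockdown. Whether the counting used strand is not given by the sources used here, and reads of the stretches that IGF2BP3 shares are uncertain.

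The genes most like each member over the 6 libraries were found by Pearson's r of log2 CPM, as a description: the libraries fall into 2 treated groups, and r follows that step where there is one. For HMGA2 they were RAI14 (r = 0.999), which encodes an actin-associated protein, FMN1 (r = 0.999), an actin-nucleating formin, and UGCG (r = 0.998), the glucosylceramide synthase. FMN1 also had a similar size of difference, 116 CPM in control and 43.7 CPM in knockdown cells at a log2 fold change of −1.41. For IGF2BP3 they were YWHAZ (r = 0.999), a 14-3-3 protein, PI4KB (r = 0.996) and MAN2A1 (r = 0.996), both of the Golgi. For HMGA1 they were SSR1 (r = 0.995), TMEM178B (r = 0.994) and the glycolytic ALDOA (r = 0.994). IGF2BP1 was closest to CCDC144A (r = 0.994) and RNASEH2A (r = 0.99), and IGF2BP2 to ZNF358 (r = 0.992), STK11IP (r = 0.991) and RBM15 (r = 0.988), none of which stepped far between groups, with log2 fold changes of 0.07 to 0.23.

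The let-7 pathway around LIN28B was tested in the same fit. Of 16 genes tested, 0 were called by edgeR, 3 had an unadjusted p under 0.05 and DESeq2 called 1. Over all genes these shares were 8.21%, 24.6% and 9.55%, so none of the counts stood above the background. The median log2 fold change was 0.13 beside 0.0067 for all genes. DICER1, which cuts precursor microRNAs, was at 113 ± 5.4 CPM in control and 97.6 ± 4.44 CPM in knockdown cells, a log2 fold change of −0.21 (edgeR adjusted p = 0.13). MIR100HG, host transcript of let-7a-2 among others, was at 107 ± 7.26 and 133 ± 9.82 CPM, 0.32 on the log2 scale (edgeR adjusted p = 0.075). TUT7, which adds uridines to let-7 precursors, was at 78.4 ± 7.35 and 68.6 ± 8.7 CPM, with overlapping groups. LIN28A, the paralog of LIN28B, had 1 count in all, and TRIM71 had 0; both are named after their values were seen. Let-7 hairpin genes were looked at afterwards as well. Those matched in the count files were 9, without MIRLET7A3, MIRLET7B and MIR98, and 1 of the 9 had enough counts to be tested. The 9 summed to 8.07, 9.6 and 11.4 CPM in control and 13.3, 14.4 and 10.7 CPM in knockdown libraries, which overlapped. The libraries were made from column-purified RNA and sheared cDNA and do not measure mature let-7.

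Other known let-7 targets held the cell cycle genes that were lower with HMGA2. Of 24 tested, 4 were called lower and 1 higher, 20.8% beside 8.21% of all genes, with a median log2 fold change of −0.08. This list was chosen with earlier results of these data known, so nothing is read from the higher share. CCND1, which encodes the G1 cyclin D1, fell from 805 ± 23.6 to 440 ± 8.03 CPM (SD, n = 3; log2 fold change −0.87, edgeR adjusted p = 0.00144). CCND2, cyclin D2, fell from 169 ± 8.31 to 89.0 ± 6.75 CPM (−0.92, edgeR adjusted p = 0.00193). Their kinase partner CDK6 fell from 351 ± 14.2 to 249 ± 8.46 CPM (−0.50, edgeR adjusted p = 0.0102). LRIG3, a membrane protein with leucine-rich repeats, went the other way, from 64.5 ± 0.626 to 94.7 ± 4.42 CPM (0.55, edgeR adjusted p = 0.00575). The most abundant targets not called were TGFBR1, a TGF-beta receptor, at 325 ± 22 and 396 ± 20.5 CPM, NRAS at 82.7 ± 9.73 and 77.9 ± 4.16 CPM and STARD13 at 68.5 ± 3.32 and 80.6 ± 4.57 CPM.

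Genes with a let-7 8mer were called both higher and lower. With each gene's longest 3′ UTR, 469 genes with an 8mer were tested, of which 27 were called higher and 22 lower, 10.4% beside 9.58% of 9927 genes without one; the medians were −0.014 and −0.015. With principal transcripts, 23 of 413 were called higher and 24 lower, 11.4% beside 9.54% of 9921 genes without one, at medians of −0.019 and −0.015. The members, chosen on this contrast, were not taken out of these sets. IGF2BP3 is among the genes called lower in both, and HMGA2 among those of the principal transcripts. Of the genes with at least 5 matches of any form, those tested beside HMGA2 and IGF2BP1 included FIGN and HEMK1, with log2 fold changes of 0.14 (SE 0.3) and 0.17 (SE 0.17), neither called. Of 14 genes tested with at least 2 8mers, the member IGF2BP1 among them, 1 was called higher and 1 lower, 14.3%, at a median of −0.165. These were ADAMTS15, a matrix protease, at 12.9 CPM in control and 27 CPM in knockdown cells (edgeR adjusted p = 0.00513), and SCN4B, a sodium channel subunit, at 5.06 and 1.82 CPM (edgeR adjusted p = 0.0425), both named after their values were seen.

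Transcripts and partner proteins linked to the IGF2BP family mostly did not pass the test. Of 15 tested, 1 was called lower and none higher, 6.67% beside 8.21% of all genes, with a median log2 fold change of −0.08. The called gene was CD44, a hyaluronan receptor whose mRNA IGF2BP proteins bind, which fell from 1050 ± 63.9 to 707 ± 42.4 CPM (SD, n = 3; −0.57, edgeR adjusted p = 0.0131). Its call was lost without control replicate 1 and without knockdown replicate 3. ACTB, the classic IGF2BP1 cargo, was at 1620 ± 92.9 CPM in control and 1330 ± 156 CPM in knockdown cells (−0.29, edgeR adjusted p = 0.17). The RNA-binding partners MATR3 and HNRNPU were at 288 ± 11 and 270 ± 9.26 CPM in control and 286 ± 9.39 and 235 ± 7.42 CPM in knockdown cells. IGF2, which gave the family its name, was at 10.4 ± 0.78 and 12.3 ± 0.282 CPM (edgeR adjusted p = 0.317) and is named after its values were seen.

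The machinery that writes, removes and reads N6-methyladenosine held 1 called gene of 13 tested, 7.69% beside 8.21% of all genes, with a median log2 fold change of −0.08. YTHDF2, a reader that speeds decay of marked mRNA, fell from 45.5 ± 1.38 to 34.4 ± 1.64 CPM (SD, n = 3; −0.41, edgeR adjusted p = 0.0207). That call was lost in 9 of 13 other settings, each fit without 1 library among them. The writer subunit VIRMA was at 105 ± 9.85 and 90.7 ± 6.92 CPM, the reader YTHDF3 at 88.2 ± 3.28 and 77.8 ± 3.47 CPM and the eraser ALKBH5 at 67.5 ± 3.44 and 64.8 ± 4.73 CPM, none of them called.

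Other high mobility group proteins did not pass the test either. Of 9 tested, 0 were called by edgeR, 3 had an unadjusted p under 0.05 and DESeq2 called 0, beside 8.21%, 24.6% and 9.55% of all genes, with a median log2 fold change of 0.16. HMGN1, a nucleosome-binding protein, was at 56.8 ± 2.94 and 63.6 ± 3.45 CPM, and HMGB1, a DNA-bending protein, at 37.5 ± 3.74 and 43.0 ± 4.35 CPM. HMGN4 varied within a group, with 261, 725 and 949 counts in control and 421, 210 and 194 in knockdown libraries, and its mean of 153 ± 105 CPM in control rests on the libraries with the higher counts.

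Genes of senescence heterochromatin, where HMGA proteins also sit, were called lower in 1 case of 12, 8.33% beside 4.31% of all genes, and that gene was the targeted MACROH2A1; the median log2 fold change of the list was −0.1. The heterochromatin protein gene CBX5 was at 170 ± 11.7 and 141 ± 10.5 CPM (log2 fold change −0.27, edgeR adjusted p = 0.116). RB1, the retinoblastoma tumour suppressor, was at 50.1 ± 4.58 and 49.2 ± 3.65 CPM, and CBX3 at 46.3 ± 4.34 and 41.2 ± 3.4 CPM.

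Genes linked to HMGA proteins by earlier literature had log2 fold changes above 0, but some of them by less than their SE. The list was chosen with earlier results of these data known, so nothing is read from the shared sign. Of 9 tested, all 9 had a positive log2 fold change, beside 50.8% of all genes, with a median of 0.43. Of these, 0 were called by edgeR and by DESeq2, beside 8.21% and 9.55% of all genes, and 6 had an unadjusted p under 0.05, beside 24.6%. E2F1, BRCA1 and TWIST1, named after their values were seen, overlapped between groups, at 0.03 (SE 0.21), 0.09 (SE 0.18) and 0.18 (SE 0.22). Without knockdown replicate 1, 7 of the 9 were positive, with a median of 0.25. BRCA1 was negative without control replicate 2 and without knockdown replicate 3, which left 8 positive. When only the genes of the authors' table were fitted, 5 of the 9 were called, a setting that called 17.7% of its genes. PLAG1, a growth-factor-activating transcription factor, was at 29.5 ± 0.836 CPM in control and 36.1 ± 2.96 CPM in knockdown cells (0.29, edgeR adjusted p = 0.0921). CCNA2, cyclin A2, was at 26.2 ± 3.09 and 35.2 ± 4.08 CPM (0.43, edgeR adjusted p = 0.0857), and SNAI2, a regulator of mesenchymal identity, at 22.7 ± 3.21 and 31.2 ± 1.52 CPM (0.46, edgeR adjusted p = 0.0569). ERCC1, a DNA repair gene named after its values were seen, had 117, 89 and 69 counts in control and 3355, 75 and 69 in knockdown libraries, so that its log2 fold change of 3.61 rests on knockdown replicate 1.

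Further oncofetal genes were mostly silent. Of 11 listed, 4 were tested, 0 were called by edgeR or by DESeq2 and 1 had an unadjusted p under 0.05, beside 8.21%, 9.55% and 24.6% of all genes, with a median log2 fold change of 0.17. PEG10, a placental gene of retrotransposon origin, was at 36.6 ± 1.4 and 33.2 ± 5.13 CPM, and TPBG, a trophoblast glycoprotein, at 20.4 ± 0.74 and 21.7 ± 0.244 CPM. Over all these lists together, 1 gene was called higher and 7 lower of 100 tested, 8% beside 8.21% of all genes, at a median log2 fold change of 0.

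**Figure D5:**
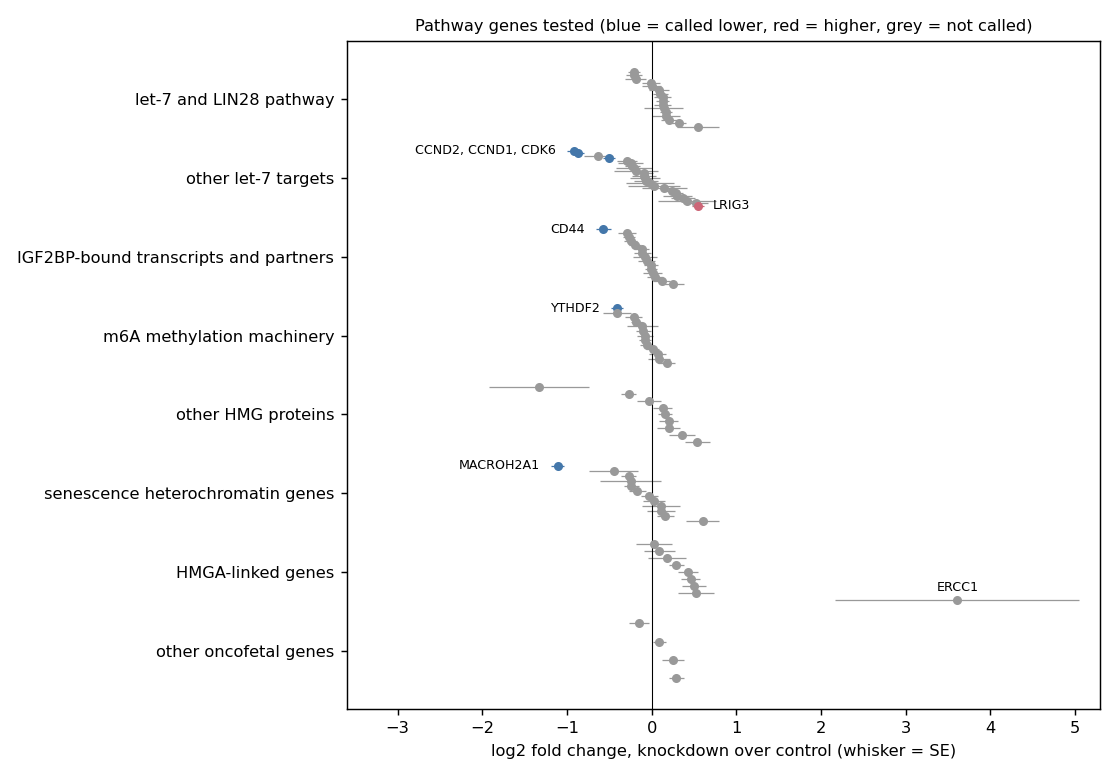
Log2 fold change of pathway genes tested, by list, knockdown over control, with SE whiskers; blue points were called lower, red higher and grey not called by edgeR. CCND1 and CCND2 stand at −0.87 and −0.92, all 9 HMGA-linked genes lie above 0 with all libraries in the fit, and the wide whisker is ERCC1.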

How the data were processed

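RNA of 6 IMR90 libraries, 3 per group, was measured after removal of ribosomal RNA, per the labels' protocols. Raw counts of reads for each Ensembl gene were deposited, made by the authors with CASAVA 1.7, GSNAP (version given as a date) and HTSeq on hg19, per the submitters' processing notes; the sources used here do not give the annotation or the use of strand. Of the reads listed, 64.4% to 68.8% had no unique alignment, and lines that name no gene were left out. The authors' deposited table, made with DESeq 1.10.1 per the same notes, holds per the file headers a mean signal (normalized counts) over all samples, a ratio of group means, its log2 and a p-value with its adjusted value; only the members' ratios were taken from it. Depth ranged from 3741087 to 6421605 gene counts, which sets the precision at low counts.

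Counts were filtered with filterByExpr (minimum count 10), scaled with TMM and fitted with edgeR 4.0.16 (limma 3.58.1, R 4.3.3) by quasi-likelihood, group as the only term, over 13445 genes, and calls were made below 0.05 after Benjamini-Hochberg adjustment. A standard error (SE) is the log2 fold change divided by the square root of F. The fit was run on artificial counts with known answers. These counts had a common spread for all genes, and the planted changes were larger than those of HMGA1 and IGF2BP3. Spread that differs between genes and small changes were therefore not covered. Symbols, types, chromosomes, lengths and UTRs came from GENCODE 29, which matched 47399 genes. Alternatives were 2 other scalings, 2 other filters, a table limited to the authors' genes, DESeq2 1.42.0, a replicate block and leaving out each library; principal transcripts were added after seeing the data. Named were all members, called genes of each list, up to 3 others by mean CPM, pseudogenes and antisense genes with a count, and the 3 genes most correlated with each member; some genes that this rule picked are left out of the text and plots. The members and lists were chosen with earlier results of these data known. P-values set the difference between groups against the spread between these libraries of 1 line, and do not cover other hairpins or lines.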

Additional observations from a re-analysis of the deposited data

How the results depend on the processing

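Over the 13 other settings of the fit, the log2 fold change of HMGA2 ranged from −1.48 to −1.42, IGF2BP1 from 0.03 to 0.16 and IGF2BP2 from −0.03 to 0.1; IGF2BP2 crossed 0 within its SE. The count of called genes was 1104, or 8.21% of all genes fitted. It was 2060, or 17.7%, with the genes of the authors' table, 416 with the replicate block and 427 to 564 without 1 library. The list counts that follow stand beside these. Over the pathway lists 8 genes were called, 25 with the authors' table, 5 with the block and 5 to 8 without 1 library. Genes with a let-7 8mer gave 49 calls, that of the member IGF2BP3 included, 107 with the authors' table, 21 with the block and 22 to 24 without 1 library. The cause of these shifts was not tested. Libraries of the same replicate number did not deviate together (correlations −0.025, −0.018 and −0.173), and those of different numbers gave −0.145 to 0.173. With 3 libraries per group, these values cannot show whether the libraries were prepared in pairs. The calls the block took included those of HMGA1, IGF2BP3, CD44 and YTHDF2. Control levels in CPM per kilobase moved with the length: HMGA1 to 22.3, IGF2BP2 to 18.1 and IGF2BP3 to 21.8 with the longest or principal transcript, and HMGA2 to 15.7 with the longest and 28.4 with the principal transcript. Depth limits LIN28B, which had 0 counts.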
